A study of Mus musculus with 35 samples.

Results

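The libraries described here are those of day 3 after induced deletion of *Dnmt1* in mouse embryonic stem cells (ESCs), and the account asks which genes and functions had changed by then. They were taken by their labels and make up 4 of the 35 libraries of the series, 2 from wild-type (WT) cells and 2 from *Dnmt1* knockout (KO) cells. The series followed RNA, depleted of ribosomal RNA, over 8 days from day 0 to day 25, and day 3 is compared below with days 0, 1, 9, 11, 17 and 25. According to the methods, the cells were a C57BL/6 line with both *Dnmt1* alleles flanked by loxP sites, grown in serum with LIF, with or without feeder cells, and Cre was induced with tamoxifen (4OHT). The labels give E14 as the background strain of every library and "Wildtype" as the genotype of the controls. For small RNA of a related line, floxed for *Dicer* as well, the study took cells without induction as WT. Whether the controls of these libraries carried the floxed alleles or received tamoxifen is not given in the sources used here, so the action of Cre or tamoxifen and the loss of *Dnmt1* cannot be told apart. The series states that its samples are biological replicates, and how the cultures were separated is not given, so the p-values measure the spread between these libraries.

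DNMT1 copies the methylation of CpG sites onto the new strand after replication, and cells without it lose methylation as they divide. In ESCs, methylation holds silent many germline genes with CpG-rich promoters, the silent alleles of imprinted genes and transposons of the endogenous retrovirus families. ESCs tolerate its loss, whereas differentiated cells respond with p53 activation and death. *De novo* methylation is carried out by DNMT3A and DNMT3B, and UHRF1 guides DNMT1 to newly replicated sites.

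At day 3 the libraries held between 24.9 M and 47.99 M reads (M, mega-reads), of which between 5.34 M and 10.3 M lay in exons of genes. Values are RPKM, that is, reads scaled to a kilobase of exon and to a mega-read of the library. Differences between genotypes are KO minus WT of log2(RPKM + 0.1), a scale that makes changes of low genes look smaller. The KO libraries had lost most *Dnmt1* RNA. *Dnmt1* (chr9:20711650-20757317, minus strand, build NCBIM37) stood at 18.97 and 18.1 RPKM in WT and at 2.84 and 2.78 RPKM in KO. The difference was -2.68 ± 0.05 (SE, limma adjusted p = 2.24e-15), and at day 1 it was already -2.57. The 8 ESC markers lay above 1 RPKM in all 4 libraries, with a summed level between 676 and 728 RPKM in WT and between 651 and 660 RPKM in KO, so that the groups did not overlap. At days 0 and 1 the sum lay lower in both genotypes, between 549.9 and 599 RPKM in WT and between 565 and 593 RPKM in KO. Called lower were 3 of the 8 markers, *Pou5f1*, *Sox2* and *Fgf4*, and none was called higher. *Dppa5a* made up most of each sum at day 3, with 459 and 507 RPKM in WT and 469 and 461 RPKM in KO, which overlap. The sum therefore does not stand for all 8 markers. The 26 fibroblast markers, which stand for feeder cells, summed to 42.9 and 46.3 RPKM in WT and to 66.3 and 67.9 RPKM in KO. The 6 primitive endoderm markers summed to 5.58 and 5.79 RPKM in WT and to 7.22 and 6.21 RPKM in KO, with 1 of 4 tested called higher. In bulk RNA, more cells of a type and more RNA per cell cannot be told apart.

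Of 11615 genes tested, 1568 were higher in KO (13.5%) and 1112 lower (9.57%) at a limma adjusted p below 0.05. A gene was tested if it passed 1 RPKM in 2 or more of 34 libraries, WT or KO, of any day. Genes expressed only in KO could thus enter, and nearly all they added were rises. Through WT libraries alone 11068 genes passed this filter, of which 1383 were higher and 1108 lower. In each of the called genes the 2 KO libraries lay on the same side of both WT libraries. This adds little to the calls, since over all genes tested both KO libraries lay above WT in 34.9% and below WT in 28.5%. Most differences were small. The rise passed 2-fold in 127 genes (1.09%) and the fall in 17 (0.146%). The median over all genes tested was 0.02. The share of rises among the calls depended on scaling. It was 58.5% as deposited and 41.3% (1260 higher, 1790 lower) when each library was centred on its median, where all 1112 falls remained called. The counts also depended on the libraries that set the spread. Without any single day 3 library, WT or KO, between 1015 and 1074 genes were higher and between 640 and 708 lower. A fit that also took in the late days, whose libraries have another share of reads in exons, called 902 higher and 483 lower with 32 libraries, and 70 higher and 7 lower with all 34, which add the other pair of day 1. Differences themselves are the same in these fits. Most list counts given below fell in the same way. From the 20 libraries to 32 and then to 34, the called rises went from 17 to 14 and 5 for germline genes, from 11 to 10 and 4 for X-linked families, from 9 to 9 and 8 for 2-cell embryo genes, from 23 to 18 and 2 for p53 targets, from 32 to 26 and 1 for actin genes and from 15 to 13 and 2 for trophoblast genes and keratins. For imprinted genes they went from 7 to 5 and 1 (maternal) and from 10 to 7 and 1 (paternal). For fibroblast markers they went from 14 to 10 and 0, with 2 at an unadjusted limma p below 0.05 in the last fit and 15 called by voom in the 20 libraries. The called falls went from 10 to 7 and 1 for core and formative factors and from 5 to 3 and 1 for DNA methylation. They went from 10 to 6 and 0 for sterol synthesis (2 at an unadjusted limma p below 0.05, and 12 by voom in the 20 libraries) and from 8 to 4 and 0 for H3K9 and polycomb repressors (0 and 10). At day 0 limma called no gene, with 812 genes at an unadjusted p below 0.05. At day 1 it called 66 genes higher (0.568%) and 25 lower (0.215%). 393 genes (3.38%) had a higher KO minus WT difference at day 3 than at day 1 and 293 (2.52%) a lower one, by a test of the difference itself.

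**Figure D1:**
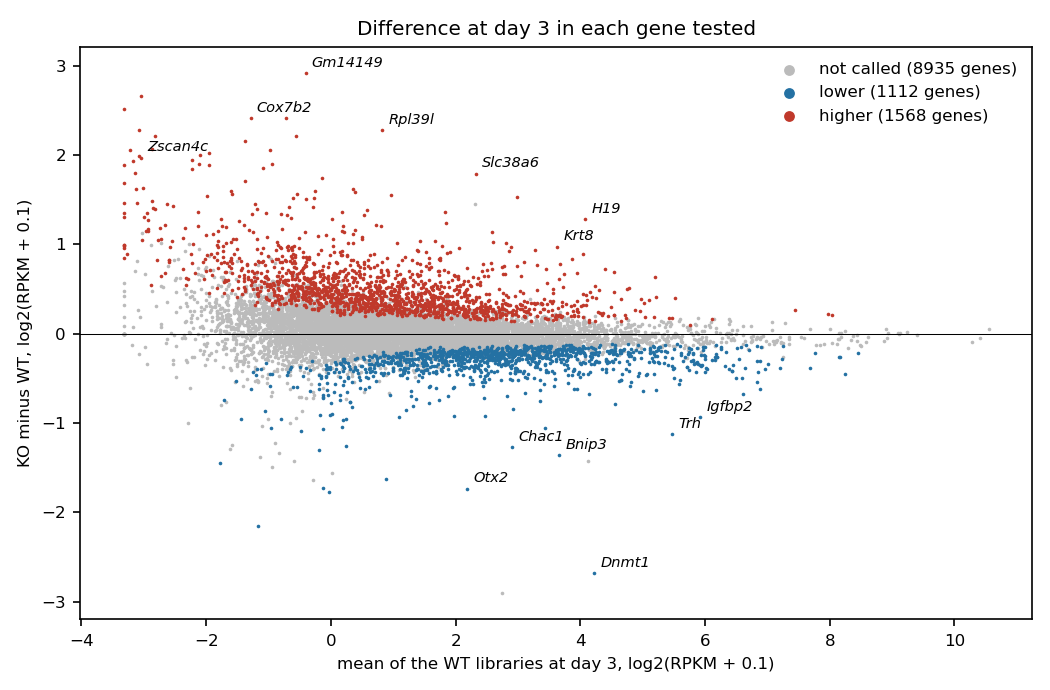
Each point is a gene tested. The x axis gives the mean of the WT libraries at day 3 on the log2(RPKM + 0.1) scale and the y axis the KO minus WT difference on the same scale, with called genes in red (1568 higher) and blue (1112 lower). The rises of over 2-fold lie mostly at the left, among genes that were low in WT.

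The 127 rises of over 2-fold came mostly from genes that were nearly silent in WT. The median level of the 127 was 0.284 RPKM in WT against 0.913 RPKM in KO. In 98 of them (77.2%) the WT mean lay below 1 RPKM, against 26.9% of all genes tested. 20 of them (15.7%) were on the X chromosome, which held 3.58% of all genes tested. Their 5′ ends were poor in CpG. In a window of 1000 bases around the start of the gene as the table places it, the median ratio of observed to expected CpG was 0.39, against 0.73 over all genes tested, and 52.8% lay below 0.4, against 15.5%. Over all 1568 rises the median ratio was 0.68, 19.9% lay below 0.4, the median WT level was 1.49 RPKM and 4.72% were on the X chromosome, nearer to the values of all genes tested. The 17 falls of over 2-fold had a median ratio of 0.51, with 35.3% below 0.4, and a median WT level of 1.03 RPKM. Over all 1112 falls these values were 0.76, 10.3% and 6.12 RPKM. These are descriptions and carry no test, since level, position and base composition were not independent of passing the filter.

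The 15 largest rises with over 1 RPKM in both KO libraries held testis and placenta genes, genes of unknown function and a few of metabolism. *Gm14149* (chr2:151030931-151057350, plus strand), a long noncoding RNA, was at 0.607 and 0.702 RPKM in WT and at 6.2 and 5.05 RPKM in KO, a difference of 2.92 ± 0.14 (SE). *Rhox6*, an X-linked homeobox gene of placenta and germ cells, was at 0.536 and 0.483 RPKM in WT and at 3.1 and 3.22 RPKM in KO, a difference of 2.42 ± 0.16 (SE). *Cox7b2*, a testis form of a cytochrome c oxidase subunit, was at 0.269 and 0.35 RPKM in WT and at 1.99 and 2.15 RPKM in KO. In each of these, both KO libraries lay far above both WT libraries. *Rpl39l*, a testis paralog of a ribosomal protein, stood at 1.81 and 1.53 RPKM in WT and at 8.24 and 8.7 RPKM in KO. The difference of *Rpl39l* was already called at day 1 (0.67, adjusted p = 0.00809). *Slc38a6*, an amino acid transporter of the SLC38 family, was the most highly expressed of the 15 and moved from 4.83 and 5.02 RPKM to 17.7 and 16.9 RPKM, a difference of 1.79 ± 0.07 (SE, adjusted p = 1.07e-10). The differences of the remaining 10 lay between 1.59 and 2.21, and groups without overlap were a condition of the choice. They were *Tsx*, an X-linked testis gene, *Pnma5*, an X-linked paraneoplastic antigen gene, *Usp26*, a testis ubiquitin protease, *2410004A20Rik*, the oocyte gene now named *Khdc3*, *Tuba3a*, a testis tubulin, *Ppp2r2c*, a regulatory subunit of protein phosphatase 2A, and *Gm17672*, *Gm3662*, *Gm4511* and *Gm3395*. *Gm3395* lies on the Y chromosome, where many copies of a sequence are near identical, so its value is uncertain. *Tuba3a* and *Rhox6* also have close paralogs. The 15th rise was 1.59 and the next in order, *Aqp3*, was 1.56.

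**Figure D2:**
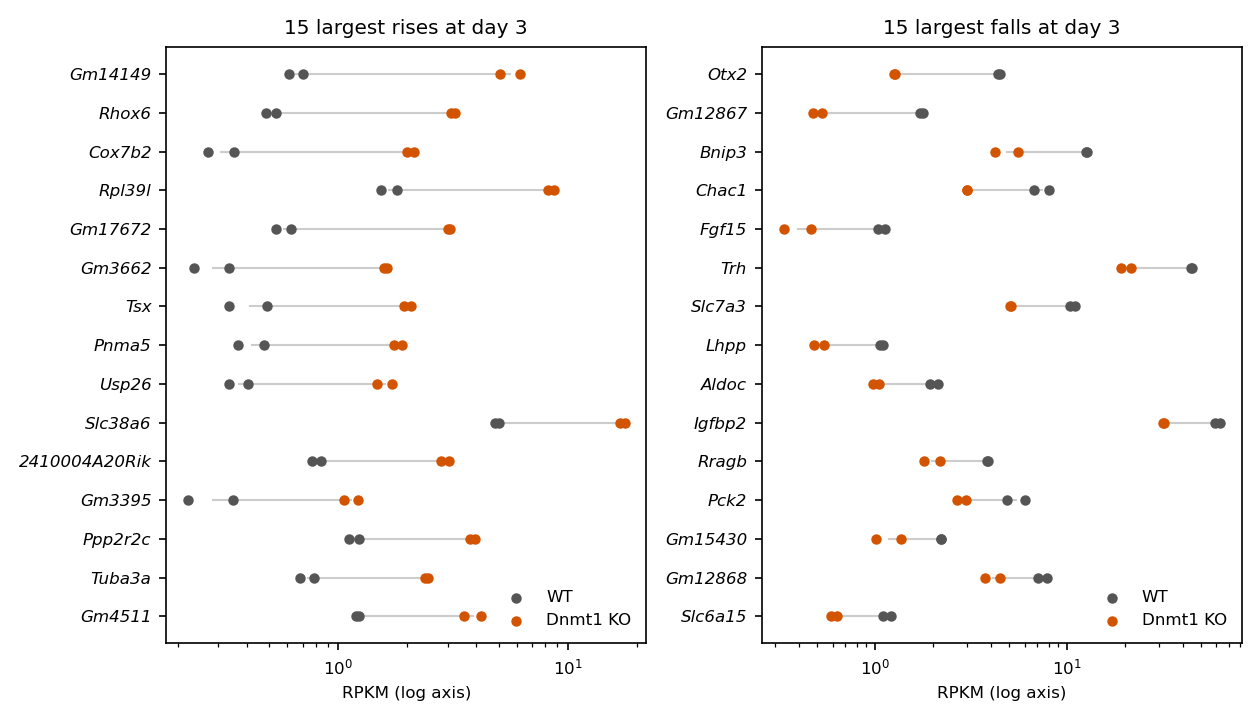
RPKM on a log axis in each library of day 3, for the 15 largest rises (left) and the 15 largest falls (right) with over 1 RPKM in both libraries of the higher group. Grey points are WT and orange points KO libraries, joined at their means. *Slc38a6* and *Igfbp2* were changed at levels well above 1 RPKM, and groups without overlap were a condition of the choice.

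The 15 largest falls held developmental regulators, secreted peptides and metabolic genes. *Otx2* (chr14:49277354-49287319, minus strand), a homeobox factor of the formative state between naive ESCs and the epiblast, was at 4.37 and 4.48 RPKM in WT and at 1.25 and 1.26 RPKM in KO. It fell by 1.74 ± 0.08 on the log2 scale (SE, adjusted p = 1.56e-09). *Fgf15*, a secreted growth factor, was at 1.04 and 1.12 RPKM in WT and at 0.462 and 0.333 RPKM in KO. Groups without overlap were a condition of the choice of these falls too. *Trh*, the precursor of thyrotropin-releasing hormone, dropped from 44.2 and 44.5 RPKM to 19.08 and 21.6 RPKM (-1.12), and *Igfbp2*, which binds insulin-like growth factors, from 58.8 and 62.7 RPKM to 31.6 and 31.99 RPKM (-0.93). They are the most highly expressed of the 15. *Rragb*, a GTPase that signals amino acids to mTORC1, *Lhpp*, a phosphatase, *Pck2*, mitochondrial PEP carboxykinase, and *Slc6a15*, a neutral amino acid transporter, fell by between 0.82 and 0.95. *Gm15430*, a pseudogene of *Rpl39*, fell by 0.86, but it lost its call without WT replicate 1, WT replicate 2 or KO replicate 2 (adjusted p = 0.0702, 0.0681 and 0.139). *Gm12867* (-1.63) and *Gm12868* (-0.85) overlap *Slc2a1* on the opposite strand, and how the counting used strand is not given, so their reads cannot be told apart from those of *Slc2a1*. *Bnip3*, *Chac1*, *Slc7a3* and *Aldoc* are given with their groups. The 15th fall was -0.82 and the next in order -0.81.

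**Figure D3:**
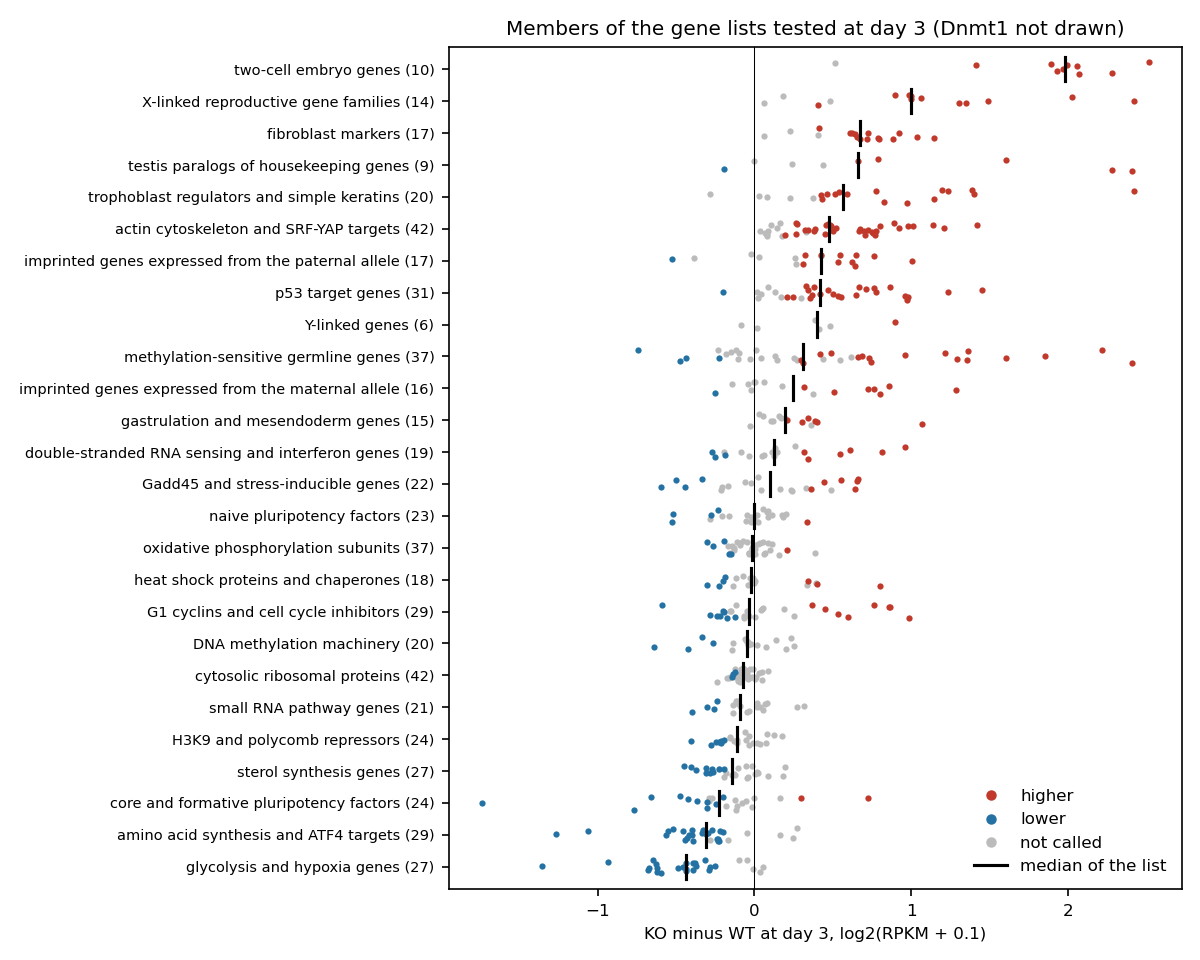
KO minus WT at day 3 on the log2(RPKM + 0.1) scale for each tested member of 26 gene lists, with the number tested in parentheses and black bars at the medians. 2-cell embryo genes are highest (median 1.98) and glycolysis and hypoxia genes lowest (median -0.43), while ribosomal proteins stay near the median of all genes (0.02).

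Germline genes known to be silenced by promoter methylation were among the largest rises, while the share of the list that fell was near that of all genes tested. Of 56 germline genes, 37 were tested, with a median of 0.31 against 0.02 over all genes tested. Called higher were 17 (45.9%) and lower 4 (10.8%), against 13.5% and 9.57% of all genes tested. Of the 31 that passed the filter through WT libraries alone, 15 rose and 4 fell. *Fkbp6*, a cofactor of the piRNA pathway, was at 0.0361 and 0.047 RPKM in WT and at 0.702 and 0.441 RPKM in KO (2.22). *Hormad1*, a protein of the meiotic chromosome axis, rose from 0.928 and 1.14 RPKM to 2.85 and 2.76 RPKM (1.36), and *Stra8*, the retinoic acid target that starts meiosis, from 0.544 and 0.541 RPKM to 1.44 and 1.52 RPKM (1.29). *Dazl*, the RNA-binding germ cell factor, rose by 0.74. In the other direction, *Sycp3*, a synaptonemal complex protein, stood at 3.38 and 3.09 RPKM in WT and at 2.24 and 1.59 RPKM in KO (-0.74). Of 9 tested testis paralogs of housekeeping genes, 5 rose (55.6%), against 13.5% of all genes tested, and 1 fell. Of the 7 that passed the filter through WT libraries alone, 4 rose and 1 fell. *Cox7b2* and *Tuba3a* are counted both among these paralogs and among the germline genes, so the counts of these lists are not separate. Sequences before the starts of 4 rising genes are shown because their CpG content sets them apart from each other. Each is the 300 bases upstream of the start in build NCBIM37, 5′ to 3′ on the gene's strand, with every CpG in capitals. They are those of *Fkbp6* (chr5:135825896-135826195, minus strand, 22 CpG), *Cox7b2* (chr5:71939445-71939744, minus strand, 9 CpG), *Rhox6* (chrX:35179787-35180086, plus strand, 5 CpG) and *Zscan4c* (chr7:11590771-11591070, plus strand, 3 CpG).
Fkbp6: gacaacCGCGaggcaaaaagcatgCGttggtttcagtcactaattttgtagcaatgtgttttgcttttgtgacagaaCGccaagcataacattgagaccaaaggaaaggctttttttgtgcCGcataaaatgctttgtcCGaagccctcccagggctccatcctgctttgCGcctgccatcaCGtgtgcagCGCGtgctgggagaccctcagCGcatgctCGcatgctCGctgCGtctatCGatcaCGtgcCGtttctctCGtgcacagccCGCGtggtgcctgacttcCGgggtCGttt
Cox7b2: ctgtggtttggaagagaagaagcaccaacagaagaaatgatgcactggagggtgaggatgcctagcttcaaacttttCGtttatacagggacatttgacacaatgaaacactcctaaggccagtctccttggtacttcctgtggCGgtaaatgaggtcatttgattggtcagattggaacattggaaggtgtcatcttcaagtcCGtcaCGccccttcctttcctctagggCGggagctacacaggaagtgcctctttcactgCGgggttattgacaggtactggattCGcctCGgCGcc
Rhox6: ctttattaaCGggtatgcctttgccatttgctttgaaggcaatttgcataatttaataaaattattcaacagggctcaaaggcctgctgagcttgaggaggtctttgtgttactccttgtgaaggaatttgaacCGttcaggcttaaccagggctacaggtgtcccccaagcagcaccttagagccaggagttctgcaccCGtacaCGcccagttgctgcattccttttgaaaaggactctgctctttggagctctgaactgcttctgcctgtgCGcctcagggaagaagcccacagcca
Zscan4c: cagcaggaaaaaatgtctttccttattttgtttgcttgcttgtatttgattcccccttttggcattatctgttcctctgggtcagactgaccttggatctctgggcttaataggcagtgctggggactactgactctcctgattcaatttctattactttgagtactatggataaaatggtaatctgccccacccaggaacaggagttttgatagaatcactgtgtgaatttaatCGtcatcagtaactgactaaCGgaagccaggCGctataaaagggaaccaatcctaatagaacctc
Over the 17 germline genes called higher the median CpG ratio was 0.58, and 1 of 17 (5.88%) lay below 0.4. Over the 11 X-linked reproductive genes called higher it was 0.39, and over the 9 called 2-cell embryo genes 0.10, all 9 below 0.4. Over all tested members the medians were near these, at 0.60 for germline genes, 0.40 for X-linked families and 0.10 for 2-cell embryo genes. The low ratios thus belong to the lists and not to their called members alone. Over all genes tested the median was 0.73, and 15.5% lay below 0.4. The letters TCCCGC, part of the E2F6 motif, read on both strands, were present in these 300 bases in 7 of the 17 (41.2%), against 30.95% of all genes tested. Over all 37 tested germline genes it was present in 14 (37.8%), and in 3 of the 4 called lower (75%). A match of letters is not a binding site.

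X-linked gene families of the reproductive tissues rose together. Of 40 members in the table, 14 were tested, with a median of 0.997. Called higher were 11 (78.6%), against 13.5% of all genes tested, and none lower. 10 of the 14 had a WT mean below 0.1 RPKM, and only 5 passed the filter in WT, all of them called. *Rhox9* rose from 0.137 and 0.178 RPKM to 0.929 and 0.963 RPKM (2.03). *Xlr3a*, of a family with copies so alike that reads may be shared or lost, was at 0.0258 and 0.0335 RPKM in WT and at 0.267 and 0.198 RPKM in KO (1.35). The difference of *Xlr3a* was larger by 2.92 at day 9 (adjusted p = 1.18e-05).

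Genes that mark the brief 2-cell-like state, in which ESCs express transcripts of the 2-cell embryo and of MERVL retroviruses, rose from near zero. Of 33 in the table, 10 were tested and 9 called higher (90%, against 13.5% of all genes tested), with a median of 1.98. None reached 1 RPKM in 2 libraries of day 3, and those tested entered through other days, so the count of called members is a description only. *Zscan4c* was at 0.0181 and 0.0235 RPKM in WT and at 0.363 and 0.384 RPKM in KO, and *Zscan4d* at 0.0209 and 0.0544 RPKM against 0.447 and 0.504 RPKM. No KO library overlapped WT, which held for every called gene. *Gm6763* had 0 reads in both WT libraries and 17 and 9 reads in KO, which is at least 5.7-fold higher against a floor of 3 reads per library. *Gm12794* had 0 reads in both WT libraries and 13 and 11 in KO, at least 5.51-fold higher. Floors cover counting error only. *Zscan4* copies are near identical, and reads of low mapping quality had been discarded, so their levels are uncertain.

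Imprinted genes, expressed from the allele of 1 parent, moved in both classes. Of 16 tested genes that the maternal allele expresses, 7 rose (43.8%) and 1 fell (6.25%), with a median of 0.25. Of 17 that the paternal allele expresses, 10 rose (58.8%) and 1 fell (5.88%), with a median of 0.42. Over all genes tested 13.5% rose and 9.57% fell. Of the 14 maternal genes that passed the filter through WT libraries alone, 6 rose and 1 fell (median 0.12). Of the 14 paternal ones, 7 rose and 1 fell (median 0.32). *H19* (chr7:149761434-149764048, minus strand), a maternal noncoding RNA whose paternal copy is methylated, was at 16.48 and 17.004 RPKM in WT and at 40.7 and 41.0 RPKM in KO, a difference of 1.28 ± 0.06 (SE, adjusted p = 7.49e-10). *Igf2*, the growth factor gene beside it, expressed from the other allele, was at 1.12 and 1.16 RPKM in WT and at 2.05 and 1.97 RPKM in KO (0.77). In both genes of this pair the KO libraries lay above the WT libraries, which held for every gene called higher. *Rian* and *Mirg*, noncoding RNAs of the *Dlk1-Dio3* cluster, rose by 0.86 and 0.80. *Rian* went from 0.59 and 0.555 RPKM to 1.11 and 1.13 RPKM. Their differences were larger by 3.62 and 3.27 at day 9 than at day 3 (adjusted p = 2.39e-09 for *Rian* and 3.51e-07 for *Mirg*). *Cdkn1c*, a cell cycle inhibitor expressed from the maternal allele, rose by 0.77 and *Plagl1*, a zinc finger factor, by 1.01. *Snrpn*, a splicing factor gene of the paternal allele, was at 10.2 and 10.1 RPKM in WT and at 6.76 and 7.27 RPKM in KO (-0.52), and its difference had turned to 0.59 by day 9. *Impact*, a translation regulator expressed from the paternal allele, rose by 0.32. RNA levels do not tell which allele gave the reads.

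Genes of p53, of the actin cytoskeleton and of simple epithelia rose as well. Of 31 tested p53 targets, 23 rose (74.2%) and 1 fell (3.23%), with a median of 0.42, against 13.5% and 9.57% of all genes tested. *Cdkn1a*, the p21 cell cycle inhibitor, rose from 2.07 and 2.3 RPKM to 4.21 and 3.9 RPKM (0.86), *Mdm2*, the ligase that degrades p53, by 0.65, and *Btg2*, an antiproliferative gene, by 0.78. These 3 had been called at day 1 already (0.76, 0.43 and 0.74), and their difference at day 3 was not shown to differ from it (adjusted p = 0.796, 0.109 and 0.852). *Ano3*, a membrane scramblase family gene, was at 0.321 and 0.336 RPKM in WT and at 1.08 and 1.07 RPKM in KO (1.46). *Perp*, a desmosome protein and p53 target, moved from 3.55 and 3.41 RPKM to 8.3 and 8.34 RPKM (1.23). Of 29 tested genes of G1 cyclins and cell cycle inhibitors, 8 rose (27.6%) and 8 fell (27.6%). Among them were *Cdkn2a*, which encodes p16 and p19 (0.98), and *Mycn*, a Myc family gene (-0.59).

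Of 20 tested trophoblast genes and simple keratins, 15 rose (75%) and none fell (median 0.56), against 13.5% and 9.57% of all genes tested. Of the 17 that passed the filter through WT libraries alone, 13 rose. *Krt8*, a keratin of simple epithelia, was at 11.5 and 13.1 RPKM in WT and at 24.5 and 23.9 RPKM in KO (0.97), and its partner *Krt18* at 11.7 and 13.6 RPKM and at 23.5 and 20.1 RPKM (0.78). *Krt19* rose by 1.39. *Rhox6* (2.42) is counted both in this list and in the X-linked families, so the 2 counts are not separate. *Hand1*, a trophoblast transcription factor, was at 0.0626 and 0 RPKM in WT and at 0.149 and 0.221 RPKM in KO (1.15). Of 42 tested genes of actin and of the SRF and YAP factors, 32 rose (76.2%) and none fell (median 0.48). Through WT libraries alone 40 passed the filter, and 30 of these rose. *Acta2*, smooth muscle actin, was at 5.85 and 5.99 RPKM in WT and at 13.5 and 12.8 RPKM in KO (1.14), and *Ankrd1*, a YAP target, at 0.673 and 0.767 RPKM and at 2.22 and 1.98 RPKM (1.42). Fibroblast markers rose beside them, 14 of 17 tested (82.4%) and none fell (median 0.67). Through WT libraries alone 15 passed the filter, and 12 of these rose. *Col1a1*, type I collagen, was at 1.15 and 0.912 RPKM in WT and at 2.44 and 2.35 RPKM in KO (1.15), and *Tnc*, the matrix protein tenascin C, rose by 1.04. None of the 26 fibroblast markers was at 0 in all 4 libraries, and 9 stayed below 1 RPKM in all 4. Their summed level already lay higher in KO at day 1, between 54.5 and 57.5 RPKM against between 45.3 and 46.4 RPKM in WT, and at day 0, between 50.6 and 51.0 RPKM against between 42.95 and 49.1 RPKM. The part of fibroblasts in the rises of the actin, keratin, p53 and imprinted genes was not tested.

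Genes of glucose and amino acid metabolism fell together. Of 27 tested genes of glycolysis and of the hypoxia response, 22 fell and none rose (median -0.43). *Bnip3* (chr7:146082519-146101202, minus strand), a mitophagy receptor and target of HIF1, was at 12.5 and 12.6 RPKM in WT and at 4.23 and 5.53 RPKM in KO, and it fell by 1.36 ± 0.16 on the log2 scale (SE, adjusted p = 2.77e-05). *Pgk1*, phosphoglycerate kinase, dropped from 97.4 and 97.0 RPKM to 56.6 and 65.1 RPKM (-0.68). *Slc2a1*, the glucose transporter GLUT1, was at 31.4 and 33.0 RPKM in WT and at 19.5 and 21.6 RPKM in KO (-0.65). *Pdk1*, a pyruvate dehydrogenase kinase, fell by 0.62, and *Aldoc*, an aldolase, by 0.94. All KO values lay below all WT values, which held for every gene called lower. Of 29 tested genes of amino acid synthesis and of the ATF4 response to amino acid shortage, 23 fell and none rose (median -0.31). *Chac1*, a glutathione-degrading enzyme and ATF4 target, was at 6.75 and 8.06 RPKM in WT and at 3.02 and 2.99 RPKM in KO (-1.27). *Slc7a3*, an arginine transporter, dropped from 10.4 and 10.98 RPKM to 5.07 and 5.06 RPKM (-1.06, adjusted p = 3.89e-09). *Asns*, asparagine synthetase, fell by 0.52, *Phgdh*, the entry enzyme of serine synthesis, by 0.40, and *Atf4* itself by 0.23. With all 34 libraries fitted, the falls of these lists were lost but for 1 glycolysis gene (8 amino acid genes fell at an unadjusted limma p below 0.05, and voom called 24 in the 20 libraries), and with 32 libraries 16 were called in each list. Of 37 tested subunits of oxidative phosphorylation, 1 rose and 5 fell (13.5%, median -0.01), and of 42 ribosomal proteins none rose and 3 fell (7.14%, median -0.07), shares near the 9.57% of all genes tested that fell. The shares that fell were 81.5% for glycolysis and hypoxia and 79.3% for amino acids and ATF4. On centred libraries 9 subunits and 8 ribosomal proteins fell, where 1790 of all 11615 genes tested were called lower.

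Sequences before the starts of 3 falling metabolic genes that hold a match are shown for motifs of the 2 factors named above. In *Bnip3* (chr7:146101203-146101502, minus strand) and *Pgk1* (chrX:103382139-103382438, plus strand), the capitals mark ACGTG, the core of the hypoxia response element, on either strand, which in *Bnip3* stands within CACGTG and so counts on both strands. In *Chac1* (chr2:119176665-119176964, plus strand), they mark TGATGNAA, the form of the ATF4 site, on the minus strand, with N any base. Windows, build and direction are as above. The same windows of *Pdk1* and *Aldoc* held no ACGTG, and those of *Slc7a3* and *Asns* held no TGATGNAA.
Bnip3: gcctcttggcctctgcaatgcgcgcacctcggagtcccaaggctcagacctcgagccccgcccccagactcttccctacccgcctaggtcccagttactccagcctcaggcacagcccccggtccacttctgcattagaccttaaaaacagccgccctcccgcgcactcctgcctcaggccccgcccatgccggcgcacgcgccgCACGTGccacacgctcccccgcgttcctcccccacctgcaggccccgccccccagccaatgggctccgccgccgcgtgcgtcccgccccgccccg
Pgk1: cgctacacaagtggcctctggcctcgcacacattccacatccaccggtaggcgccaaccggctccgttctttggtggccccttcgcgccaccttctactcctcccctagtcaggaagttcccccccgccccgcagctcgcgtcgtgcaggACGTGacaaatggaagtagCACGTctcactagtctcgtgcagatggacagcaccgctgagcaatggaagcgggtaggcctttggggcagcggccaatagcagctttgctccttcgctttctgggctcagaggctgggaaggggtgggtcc
Chac1: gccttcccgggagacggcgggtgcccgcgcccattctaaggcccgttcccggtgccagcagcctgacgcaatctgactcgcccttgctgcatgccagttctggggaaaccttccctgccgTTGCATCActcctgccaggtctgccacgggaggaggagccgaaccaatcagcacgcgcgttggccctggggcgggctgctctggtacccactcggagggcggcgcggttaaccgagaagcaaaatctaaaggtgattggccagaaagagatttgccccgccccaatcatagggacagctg
In these 300 bases, ACGTG was present in 9 of the 22 called glycolysis and hypoxia genes (40.9%) and in 13 of all 27 tested members of the list (48.1%), against 25.5% of all genes tested. TGATGNAA was present in 4 of the 23 called amino acid and ATF4 genes (17.4%) and in 6 of all 29 tested members (20.7%), against 2.51%. The share was thus no higher in the called members than in their whole list for either motif. CACGTG includes ACGTG, and neither share was tested.

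Of 27 tested genes of sterol synthesis, 10 fell at day 3 (37.0%) and none rose (median -0.14), against 9.57% and 13.5% of all genes tested. This group had moved earlier. At day 1, 10 were called lower (median -0.32), against 0.215% of all genes tested. *Insig1*, which holds the sterol sensor in the endoplasmic reticulum, was at 16.2 and 16.6 RPKM in WT and at 11.9 and 12.1 RPKM in KO at day 3 (-0.45, and -0.48 at day 1).

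Of 24 tested core and formative pluripotency factors, 10 fell (41.7%) and 2 rose (8.33%), with a median of -0.22. Over all genes tested 9.57% fell and 13.5% rose. *Pou5f1* was at 53.3 and 53.7 RPKM in WT and at 45.5 and 47.4 RPKM in KO (-0.20, adjusted p = 0.0161), a call lost without WT replicate 1, WT replicate 2 or KO replicate 1 (adjusted p = 0.0632, 0.0785 and 0.113). *Sox2* was at 62.9 and 64.7 RPKM in WT and at 53.997 and 53.6 RPKM in KO (-0.24, adjusted p = 0.00248). *Nanog* stood at 28.6 and 30.0 RPKM in WT and at 31.3 and 29.6 RPKM in KO, which overlap (0.06, adjusted p = 0.755). Beside *Otx2*, *Zic2*, a zinc finger factor of the epiblast, fell by 0.77 and *Fgf4*, the autocrine growth factor of ESCs, by 0.48, while *Lefty2*, an inhibitor and target of Nodal, rose by 0.73. Of 23 naive factors, 4 fell (17.4%) and 1 rose (4.35%), with a median of 0.00. Among those that fell were *Klf2*, a Krüppel-like factor (-0.52), and *Tdh*, the threonine dehydrogenase of mouse ESCs (-0.53). *Dusp6* and *Spry4*, feedback inhibitors of ERK signalling, fell by 0.50 and 0.60 at day 3 after differences of 0.55 and 0.66 at day 1, and both changes between days passed the test (adjusted p = 1.28e-05 and 0.00183). Of 15 gastrulation and mesendoderm genes, 6 rose (40%) and none fell.

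Several genes of the silencing machinery other than *Dnmt1* were lower in KO. *Dnmt3a* was at 2.56 and 2.11 RPKM in WT and at 1.4 and 1.51 RPKM in KO (-0.64), *Dnmt3b* at 15.6 and 13.7 RPKM and at 10.7 and 11.09 RPKM (-0.42), and *Uhrf1* at 15.7 and 14.8 RPKM and at 16.1 and 17.7 RPKM (0.14, adjusted p = 0.134). The call of *Dnmt3b* (adjusted p = 0.0117) was lost without WT replicate 1 (adjusted p = 0.116) or KO replicate 1 (adjusted p = 0.0701). Of 20 genes of DNA methylation, 5 fell (25%), *Dnmt1* among them. Of 24 H3K9 and polycomb repressors 8 fell (33.3%), with *Cbx1*, which binds methylated H3K9, at -0.41 and *Setdb1*, the H3K9 methyltransferase of transposons, at -0.23. Of 21 small RNA pathway genes 4 fell, and no gene of these 3 lists rose by this test. On centred libraries 12 of the H3K9 and polycomb repressors fell, where 1790 of all 11615 genes tested were called lower. Of 19 tested genes of double-stranded RNA sensing and interferon, 6 rose (31.6%) and 3 fell (15.8%), with a median of 0.13. Of the 17 that passed the filter through WT libraries alone, 5 rose and 3 fell. The rises were led by antigen presentation, with *Tap1*, the peptide transporter, at 0.96 and *H2-K1*, a class I molecule, at 0.61. *Tap1* is also a p53 target. Of 22 genes of Gadd45 and stress, 6 rose (27.3%) and 4 fell (18.2%). Of 18 chaperones, 3 rose (16.7%) and 4 fell (22.2%), and of 6 Y-linked genes 1 rose (16.7%). Through WT libraries alone, 17 chaperones and 2 Y-linked genes passed the filter, of which 2 chaperones and no Y-linked gene rose. Over all genes tested 13.5% rose and 9.57% fell.

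Most of the large rises of day 3 were also called on later days, which have libraries of their own. Days 1 and 9 share the fit and its estimate of the spread with day 3, so their calls are not independent of those at day 3. Days 11, 17 and 25 were fitted apart. Of all genes tested, limma called higher 23.4% at day 9, 12.1% at day 11, 19.6% at day 17 and 32.6% at day 25. The shares called lower on these days were 18.9%, 5.2%, 5.49% and 21.1%. Of the 1568 genes called higher at day 3, 1077 (68.7%) were called higher at day 9, which is 39.6% of the genes higher there, 693 (44.2%) at day 11, 49.1% of those there, and 960 (61.2%) at day 17, 42.3% of those there. At day 25, 638 (40.7%) were called higher, 16.8% of the genes higher there, and 287 lower. Of the 127 rises of over 2-fold, 118 (92.9%) were called higher at day 9 and 93 (73.2%) at day 25. Of the 1112 genes called lower, 623 (56.0%) were called lower at day 9, 28.4% of the genes lower there. At day 11 it was 250 (22.5%), 41.4% of those there, and at day 17 it was 285 (25.6%), 44.7% of those there. At day 25, in contrast, 205 (18.4%) were lower, 8.36% of those there, and 418 higher. Looking back, 44 of the 66 genes higher at day 1 (66.7%) and 13 of the 25 lower (52.0%) were called in the same direction at day 3. From day 3 to day 9, the difference became higher in 767 genes (6.6%) and lower in 616 (5.3%).

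**Figure D4:**
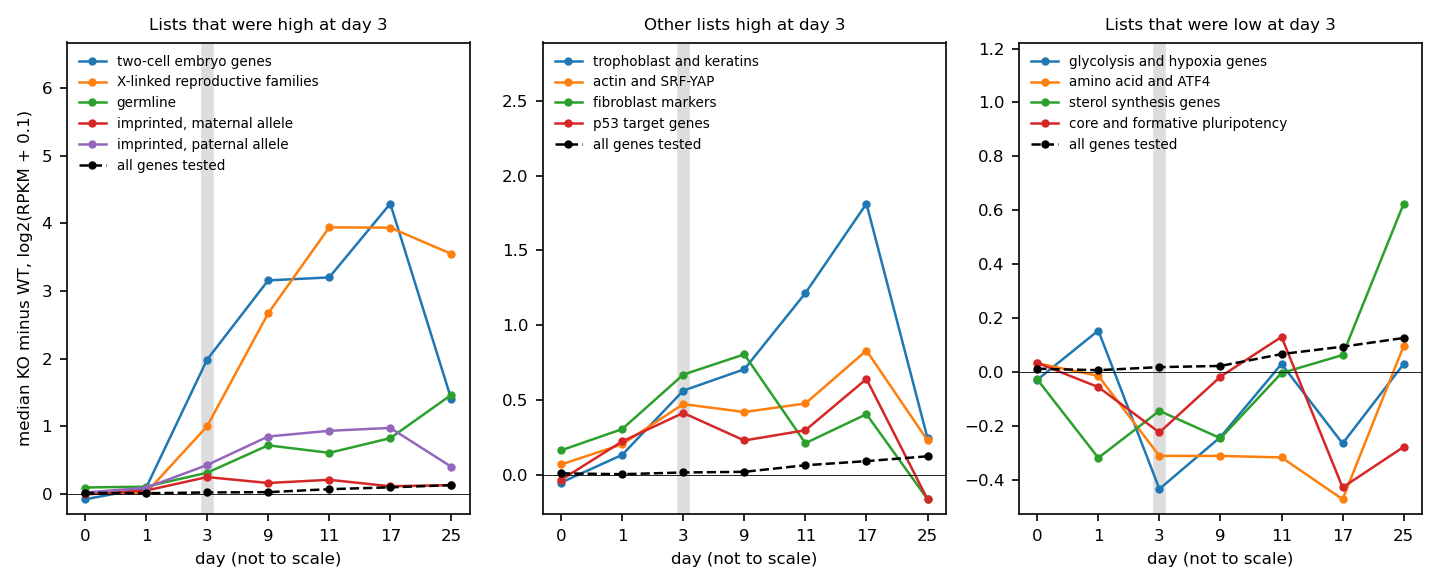
Median KO minus WT difference, log2(RPKM + 0.1), of gene lists on 7 days (days not to scale), with day 3 shaded and all genes tested as a dashed line. The 2-cell embryo genes stand at 1.98 on day 3 and 4.29 on day 17, while the glycolysis and hypoxia genes have their lowest median on day 3 (-0.43).

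Single genes took different courses. *Rhox6* stood at -0.08 at day 1, 2.42 at day 3 and 3.16 at day 9, and *Slc38a6* at 0.01, 1.79 and 2.59. *Rian* went from 0.86 at day 3 to 4.48 at day 9 and 8.97 at day 25. Among falls, *Otx2* held its level, with -1.74 at both day 3 and day 9, and stood at 0.26 at day 25. *Slc7a3* went from -1.06 at day 3 to -0.17 at day 9, a change that passed the test (adjusted p = 4.59e-06). *Trh* stood at -1.12 at day 3, -2.02 at day 11 and 2.60 at day 25.

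**Figure D5:**
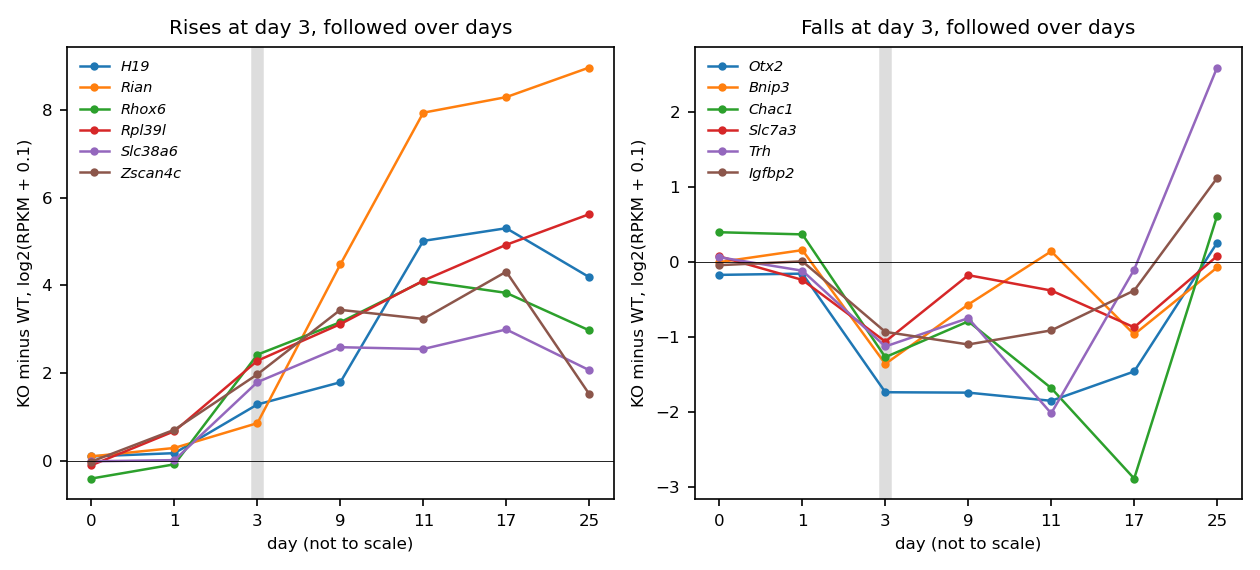
KO minus WT difference, log2(RPKM + 0.1), of 6 genes that rose at day 3 (left) and 6 that fell (right) on 7 days (days not to scale), with day 3 shaded. *Rian* reaches 8.97 at day 25 and *Otx2* goes from -1.74 on day 3 to -1.46 on day 17 and 0.26 on day 25.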

How the data were processed

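Total RNA was sequenced from paired ends in stranded libraries. According to the methods, the authors trimmed reads and aligned them to NCBIM37 (Trim Galore 0.3.5 and TopHat2 2.0.11, per the submitters' processing notes), dropped reads with poor mapping scores, and SeqMonk gave the gene values. The methods name log2 RPM, but the deposited values are linear RPKM, the unit used here. Reads were recovered from the RPKM and the exon lengths of GENCODE vM1. At least 99.94% of the values below 20 reads were whole within 0.1. Between 5.34 M and 10.3 M reads per day 3 library lay in exons, and replicates had a Pearson r across genes of 0.995 (WT) and 0.993 (KO). Their chi-square per degree of freedom was 1.97 and 1.39, so they differed beyond sampling noise.

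Genes that passed 1 RPKM in 2 or more libraries, of the 34 from WT or *Dnmt1* KO cells, were tested with limma 3.58.1 (R 4.3.3; lmFit, eBayes with trend) on log2(RPKM + 0.1), and called at a Benjamini-Hochberg adjusted p below 0.05 over all 11615 genes. The fit used group means over 20 libraries in 10 groups of 2 (days 0, 3, 6 and 9 and replicates 1 and 2 of day 1), whose share of reads in exons lay between 20.2% and 22.0%. Day 6 entered for the spread only, since its *Dnmt1* RNA goes against its labels. Days 11, 17 and 25 were fitted apart (12 libraries). The functions were tested on simulated data. Members, lists and tests were chosen with earlier results of these data known. Named genes are *Dnmt1*, the 15 largest rises and 15 largest falls that passed the test with over 1 RPKM in both libraries of the higher group and no overlap, called list members, and *Pou5f1*, *Sox2*, *Nanog*, *Dnmt3a*, *Dnmt3b* and *Uhrf1*. *Aqp3* was added as the next in order and *Dppa5a* as the highest of the ESC markers. *Fn1*, *Dcn*, *Fap*, *Snai2* and *Twist2* were added as fibroblast markers. None of these was followed between days. Python 3.11.15 with numpy 2.4.6, pandas 2.3.3 and matplotlib 3.10.9 was used for lists, sequences and figures. Alternatives concerned the pseudocount, filter, libraries fitted, scaling, voom, pairing and single libraries. The *Dicer* KO library was not used here.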

Additional observations from a re-analysis of the deposited data

Results flagged for a closer look

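The KO minus WT difference of a named gene was looked at again where it changed between days, by a test of the change itself in the limma fit (adjusted p below 0.05 over all 11615 genes). Among the 89 genes named at day 3, the difference was higher at day 3 than at day 1 in 39 and lower in 25, and the day 3 libraries that chose the named genes take part in both tests. Values are changes of the difference on the log2(RPKM + 0.1) scale.

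From day 1 to day 3 the changes upward were *Gm14149* (2.68), *Rhox6* (2.50), *Gm6763* (2.19), *Cox7b2* (2.12), *Gm3662* (2.10), *Gm17672* (2.03), *Fkbp6* (1.98), *Tsx* (1.97), *Gm12794* (1.97), *Zscan4d* (1.90), *Slc38a6* (1.78), *Rhox9* (1.71), *Gm3395* (1.66), *Pnma5* (1.65), *Rpl39l* (1.61), *Gm4511* (1.53), *Usp26* (1.46), *Tuba3a* (1.38), *Ppp2r2c* (1.36) and *Hormad1* (1.296). Further changes upward were *Xlr3a* (1.27), *Zscan4c* (1.26), *Krt19* (1.20009), *2410004A20Rik* (1.16), *H19* (1.11), *Perp* (1.07), *Ankrd1* (1.06), *Stra8* (1.05), *Ano3* (0.99), *Mirg* (0.87), *Krt8* (0.81), *Krt18* (0.74), *Cdkn1c* (0.72), *Tap1* (0.67), *H2-K1* (0.65), *Rian* (0.57), *Lefty2* (0.53), *Dazl* (0.52) and *Impact* (0.36).

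The changes downward were *Chac1* (-1.64), *Otx2* (-1.58), *Bnip3* (-1.52), *Gm12867* (-1.47), *Spry4* (-1.26), *Gm12868* (-1.07), *Dusp6* (-1.05), *Trh* (-1.01), *Igfbp2* (-0.94), *Pck2* (-0.93), *Rragb* (-0.91), *Slc2a1* (-0.90), *Aldoc* (-0.87), *Slc7a3* (-0.82), *Pgk1* (-0.82), *Slc6a15* (-0.80), *Lhpp* (-0.75), *Mycn* (-0.68), *Pdk1* (-0.53), *Tdh* (-0.48), *Phgdh* (-0.45), *Snrpn* (-0.43), *Pou5f1* (-0.32), *Cbx1* (-0.30) and *Fgf4* (-0.24).

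From day 3 to day 9, 33 differences became higher and 7 lower. Upward changes, led by the noncoding RNAs of the *Dlk1-Dio3* cluster, were *Rian* (3.62), *Mirg* (3.27), *Xlr3a* (2.92), *Zscan4d* (1.77), *Pnma5* (1.57), *Gm12867* (1.56), *Fkbp6* (1.53), *Cox7b2* (1.48), *Zscan4c* (1.47), *Usp26* (1.303), *Gm3395* (1.24), *Gm15430* (1.197), *Snrpn* (1.12), *Impact* (1.06), *Gm14149* (0.99), *Gm17672* (0.95), *Dazl* (0.93), *Gm3662* (0.90), *Slc7a3* (0.89), *Gm12868* (0.88), *Lefty2* (0.87), *Rpl39l* (0.83), *Hormad1* (0.80), *Slc38a6* (0.80), *Bnip3* (0.79), *Rhox6* (0.74), *Gm4511* (0.73), *Zic2* (0.72), *Slc2a1* (0.61), *H19* (0.51), *Dusp6* (0.45), *Tdh* (0.32) and *Atf4* (0.27). Downward changes were *Ankrd1* (-1.002), *Sycp3* (-0.94), *Tuba3a* (-0.89), *Col1a1* (-0.67), *Cdkn1c* (-0.64), *Ano3* (-0.49) and *Btg2* (-0.42).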

How the results depend on the processing

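The loss of *Dnmt1* RNA kept its direction and its call under every alternative run, between -2.36 (pseudocount 1) and -2.73 (libraries centred on their median), and between -2.71 and -2.65 without 1 library. No named gene or called list member changed sign. Counts of calls depended on the libraries fitted. With all 34 libraries, limma called 70 genes higher and 7 lower at day 3, 20 with a larger and 2 with a smaller difference at day 3 than at day 1, and 17 with a larger and 0 with a smaller difference at day 9 than at day 3 (130 at an unadjusted p below 0.05, and 833 by voom in 20 libraries). With 32 libraries, without the third day 1 pair, these counts were 902, 483, 140, 55, 241 and 90. Of the 36 named genes called by rule or kept by name, 19 lost their side of the threshold with 34 libraries and 2 with 32. Of the called list members, 249 lost their call with 34 libraries (21 did not) and 84 with 32 (186 did not), and 37 and 16 of the list counts moved by over 1.5 times (15 and 36 did not). Centring gave 1790 falls.

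Leaving out 1 library gave between 1015 and 1074 rises and between 640 and 708 falls. Between day 1 and day 3 it gave 198 to 277 larger and 128 to 211 smaller differences, and between day 3 and day 9 it gave 315 to 803 larger and 190 to 579 smaller ones. The lone sample left is then assumed to vary like the others. Replicate numbers did not pair the samples, since the deviations of same-numbered WT and KO libraries correlated at -0.05 at day 3, -0.13 at day 1 and 0.09 at day 9. A fit with the replicate number as a block called 1362 genes higher and 902 lower, 216 and 148 with a larger and a smaller difference at day 3 than at day 1, and 514 and 353 from day 3 to day 9. Voom on recovered reads called 1725 higher and 1170 lower, sharing 1479 of the 1568 rises and 1035 of the 1112 falls, and 1 fall had the opposite sign. Both pseudocounts, both filters, the days compared alone and, an alternative chosen after seeing the data, leaving out day 6 kept these counts within 1.5 times. With 2 libraries a group and shallow coverage of low genes, changes of genes near 0 RPKM rest on few reads. The cause of the other moves was not tested.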
